A study of Mus musculus with 18 samples.

Results

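The comparison is between the untreated FatK1 arrays and the untreated FatK7 arrays, chosen by their sample labels, which makes 6 of the 18 arrays of the series, 3 in each group. Per the labels, every array carried RNA from tumour inducing cells of colon that were sorted for the surface protein CDCP1. The tumours came from C57Bl/6 mice aged 17 weeks of the genotype abbreviated FatK. It joins a Cre recombinase, written Fapbl-Cre, with a conditional allele of Apc, a brake on Wnt signalling, written Apc2lox14/+, and a further allele that is not named here. The FatK1 arrays are labelled mouse 1 and the FatK7 arrays mouse 7, both sets of cells were kept with doxycycline (Dox), and neither received Foxd3 shRNA. The matching shFoxd3 arrays of the same labels, cells treated with Foxd3 shRNA for 24 h, were used as a repeat of the comparison. Each label names 1 mouse, the labels do not say that replicate arrays came from separate cultures, and the labels do not describe the cells that drive Cre. The p-values below therefore reflect only how far arrays of one label differ, and that spread may be technical. Of 45281 probes on the array, 43 whose signals were printed with more than 7 significant digits on any array were left out.

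Brown adipocytes store triglyceride in many small droplets and burn fatty acids in their mitochondria, where uncoupling protein 1 turns the proton gradient into heat. Hepatocytes take up and make fatty acids as well, but they export lipid in lipoproteins, turn cholesterol into bile acids, release ketone bodies and oxidise long and unusual fatty acids in peroxisomes and the endoplasmic reticulum. Much of this division of labour runs through related genes with separate tissue patterns, so that fat and liver use different members of one family for the same step.

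The deposited bead signals averaged 187 to 199 per probe on the FatK1 arrays and 269 to 294 on the FatK7 arrays. Between 19146 and 19971 probes were detected on a FatK1 array and between 17270 and 18178 on a FatK7 array. Values below are normalised signals, that is signals corrected for background, quantile normalised over the series and carrying an offset of 16, so that an undetected probe lies at about 20 to 30. Differences are FatK1 minus FatK7 on the log2 scale with the moderated standard error of limma, and each adjusted p comes from limma's moderated test with Benjamini-Hochberg adjustment over all 24789 probes tested. A probe or gene is called where that adjusted p is below 0.05. For a probe not detected on all 3 arrays of the dimmer group, the fold change is given as a lower bound, in which each array of that group counts at its own signal or at the dimmest detected signal, whichever is higher, while the difference is the fitted one. Pearson's r of the log2 values was 0.966 to 0.987 between FatK1 arrays, 0.991 to 0.992 between FatK7 arrays and 0.730 to 0.751 between the groups.

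Of the 24789 probes tested, 7704 (31.1%) were higher in FatK1 and 6206 (25.0%) were lower, which is 56.1% in either direction, and 3903 (15.7%) were higher and 3282 (13.2%) lower by at least 2-fold. Reduced to 1 probe for each of 12894 genes, 3938 genes (30.5%) were higher and 3559 (27.6%) lower, 58.1% in all, and 2098 (16.3%) were higher and 1988 (15.4%) lower by at least 2-fold. The values of the groups did not overlap for 64.7% of the probes tested. These shares are the background against which the counts below are to be read, beside a median difference over all genes of 0.06. A probe was tested if detected on at least 3 of the 18 arrays. A gene high in 1 group can thus enter a list count through that group alone. Quantile normalisation moved the median difference of the 13114 probes detected on all 6 arrays by 0.37, to 0.12 after it against -0.25 before it, and by 0.68 in the brightest of 3 equal parts of them. Without normalisation between arrays 5364 probes were higher and 7579 lower, so the split between the directions turned with that step, and a list in which it moved a count by over 1.5 times and by 2 or more members is given both ways.

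The most different probes named brown fat on one side and liver on the other. Ucp1, the uncoupling protein of brown fat, gave 12626, 5208 and 9118 on the FatK1 arrays, against 60.1, 23.6 and 21.8 on the FatK7 arrays. Cox8b, a fat and muscle form of a cytochrome oxidase subunit, gave 25270.3, 17710.5 and 22822 on the FatK1 arrays, against 109.9, 21.0 and 20.6 on the FatK7 arrays. Fabp3, a fatty acid binding protein of oxidative tissues, gave 18339, 11391 and 19251 on the FatK1 arrays, against 35.2, 21.9 and 23.0 on the FatK7 arrays. All 3 genes were near background on FatK7 arrays 2 and 3, and a low signal on FatK7 array 1 was still far under every FatK1 value. The differences were 8.07 ± 0.33 for Ucp1 (at least 216-fold higher, adjusted p = 9.8e-14), 9.22 ± 0.41 for Cox8b (at least 454-fold higher) and 9.25 ± 0.19 for Fabp3 (at least 487-fold higher). On the liver side Hpx, the plasma haem carrier haemopexin, gave 21.4, 19.9 and 23.7 on the FatK1 arrays, against 25964, 26382 and 24591 on the FatK7 arrays. Serpina1c, an antitrypsin secreted by hepatocytes, gave 23.8, 29.2 and 20.5 on the FatK1 arrays, against 25026, 25270.3 and 23869.9 on the FatK7 arrays. Both were at background on the FatK1 arrays and the groups were far apart, at least 902-fold lower for Hpx (adjusted p = 4.6e-20) and at least 856-fold lower for Serpina1c.

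The marker lists placed the FatK1 arrays with brown fat and the FatK7 arrays with liver, and of 15 colon epithelium markers on the array 8 passed the detection filter, 2 of them higher and 4 lower in FatK1. Among those tested, all 8 of 8 brown adipocyte markers and 7 of 8 general adipocyte markers were higher in FatK1, of 9 on the array for each. Of 10 hepatocyte markers tested, 9 were lower. Among the colon epithelium markers, Epcam, Cdx1, Cdx2, Vil1, Cdh17, Krt19 and Krt20 did not pass the detection filter and were not tested. The keratins of simple epithelia, which hepatocytes also make, gave 22.5, 21.6 and 22.8 for Krt8 on the FatK1 arrays, against 4608, 3744 and 4660.3 on the FatK7 arrays. Krt18 followed, with 22.3, 21.97 and 21.5 on the FatK1 arrays, against 1649, 1831 and 1814 on the FatK7 arrays. Both keratins were at background on all FatK1 arrays. Muc2, the goblet cell mucin, was at least 2.10-fold higher in FatK1 but dim, with 73.5, 59.5 and 63.1 on the FatK1 arrays, against 21.95, 20.3 and 22.6 on the FatK7 arrays. The probe of Foxd3, the gene targeted in the other arm of the study, did not pass the detection filter, with 26.3, 23.1 and 20.2 on the FatK1 arrays, against 32.6, 26.9 and 22.2 on the FatK7 arrays. Cdcp1, the sorting marker, was also near background, with 22.2, 28.4 and 29.1 on the FatK1 arrays, against 30.1, 23.8 and 34.6 on the FatK7 arrays (adjusted p = 0.40). Some hepatocyte markers were dim on the FatK7 arrays too. Alb, for albumin, which was picked out after its values were seen, gave 21.0, 23.4 and 27.4 on the FatK1 arrays, against 55.4, 71.2 and 62.8 on the FatK7 arrays. Tat, tyrosine aminotransferase, was the marker not called, with 32.8, 35.0 and 34.5 on the FatK1 arrays, against 26.2, 34.8 and 29.1 on the FatK7 arrays.

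**Figure D1:**
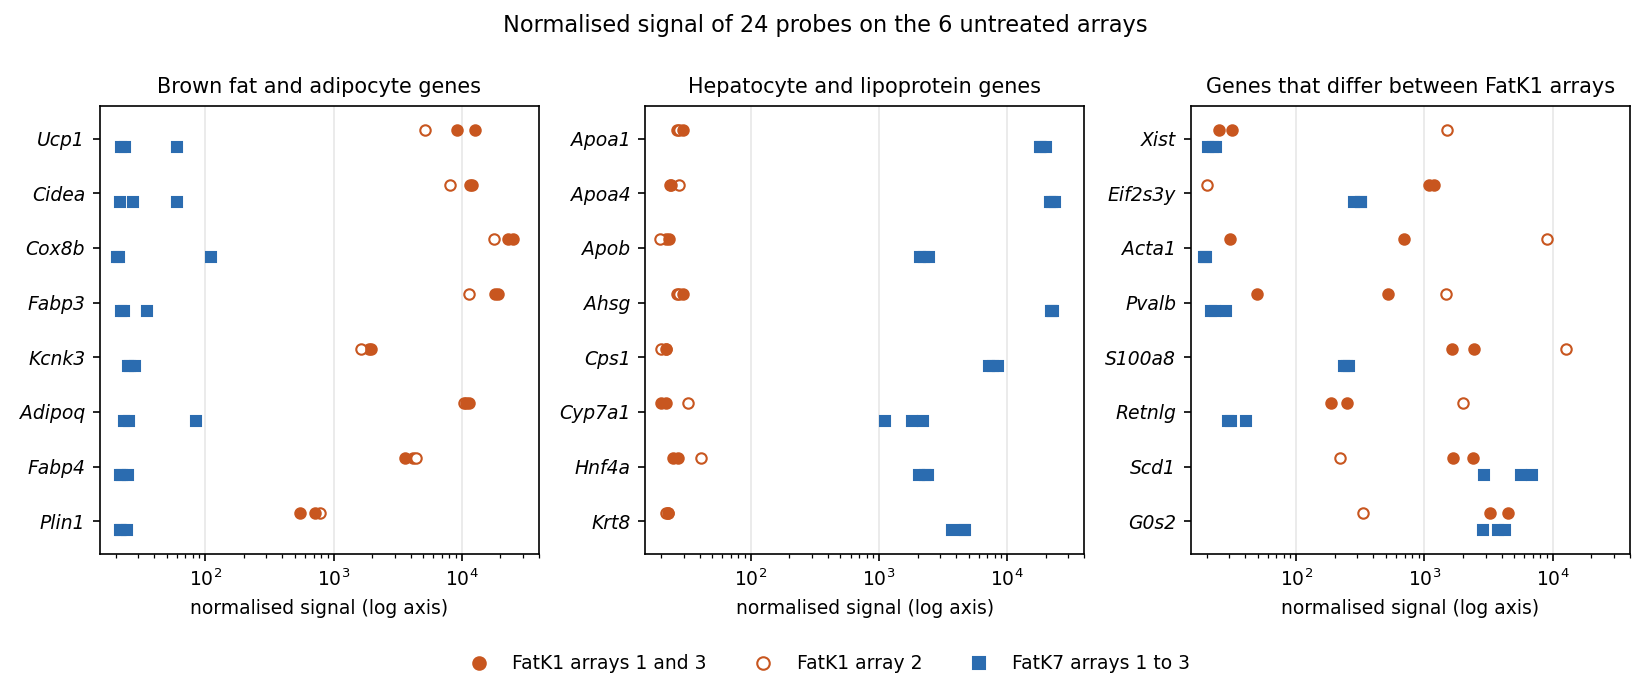
Normalised signal (log axis) of 24 probes on the 6 untreated arrays, with FatK1 as circles above FatK7 as squares and FatK1 array 2 as an open circle. Brown fat and adipocyte genes lie far to the right on the FatK1 arrays, hepatocyte and keratin genes on the FatK7 arrays, and the genes in the right panel, picked after their values were seen, separate FatK1 array 2 from the other FatK1 arrays or overlap between the groups.

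The FatK1 arrays were not alike, and FatK1 array 2 stood apart. Xist, the transcript of the inactive X chromosome, gave 24.8, 1499.7 and 31.7 on the FatK1 arrays, against 23.7, 22.4 and 20.6 on the FatK7 arrays. Eif2s3y, on the Y chromosome, gave 1182, 20.2 and 1084 on the FatK1 arrays, against 282, 319.6 and 319 on the FatK7 arrays. FatK1 array 2 thus carried the X transcript and not the Y transcript, while the other 5 arrays carried the Y transcript, under labels that give FatK1 as 1 mouse. On the shFoxd3 FatK1 arrays Xist gave 1525, 1384 and 1328 and Eif2s3y gave 22.1, 23.4 and 19.2, so those arrays matched FatK1 array 2 in both transcripts. FatK1 array 2 also held the highest signal of skeletal muscle genes such as Acta1, the skeletal muscle actin, with 30.5, 9010.4 and 698 on the FatK1 arrays, against 19.7, 19.4 and 19.2 on the FatK7 arrays. The neutrophil gene S100a8 was brightest there too, with 2448, 12674 and 1657 on the FatK1 arrays, against 257, 237 and 248 on the FatK7 arrays. FatK7 array 1 held traces of brown fat genes, for example of Adipoq, with 11391, 10464 and 10741 on the FatK1 arrays, against 84.2, 25.2 and 23.4 on the FatK7 arrays. Where leaving out 1 array moved a count of a list by over 1.5 times and by 2 or more members, the count without it stands beside it.

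Genes of fatty acid uptake and activation fell on both sides. Of 18 members tested, 5 were higher and 7 lower in FatK1, with a median difference of -0.10. Fabp4, the adipocyte fatty acid binding protein, gave 4198, 4386 and 3627 on the FatK1 arrays, against 25.1, 21.5 and 22.4 on the FatK7 arrays, which is at least 131-fold higher (adjusted p = 3.2e-19). Acss1, which activates acetate inside mitochondria and is high in brown fat, gave 6478, 5876 and 7588 on the FatK1 arrays, against 47.3, 47.3 and 44.2 on the FatK7 arrays (143-fold higher). Cd36, a membrane receptor for long chain fatty acids, was at least 12.6-fold higher and Slc27a1, the transport protein of fat and muscle, 7.41-fold higher. Members of the transport protein family known from liver went the other way. Slc27a5, which activates bile acids and fatty acids in hepatocytes, gave 22.7, 20.4 and 20.3 on the FatK1 arrays, against 3820.2, 4482 and 3512 on the FatK7 arrays (at least 138-fold lower). Slc27a2 was detected in both and 2.51-fold lower in FatK1. Among the acyl-CoA synthetases, Acsl3, Acsl4 and Acsl5 were lower by 1.74-fold, at least 4.62-fold and 2.72-fold, and the medium chain enzyme Acsm5 by 20.1-fold. Dbi, the acyl-CoA binding protein, was bright in both groups, with 23869.9, 21839 and 20966 on the FatK1 arrays, against 20026, 22969.6 and 25964 on the FatK7 arrays, and the values overlapped.

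Genes of heat production in brown fat were higher in FatK1 with few exceptions. Of 24 members tested, 21 were higher in FatK1 and 1 was lower, with a median difference of 3.49, or 3.20 with genes held at their bound where they have one. Cox7a1, another fat and muscle subunit of cytochrome oxidase, gave 18579, 8678 and 18189.5 on the FatK1 arrays, against 95.1, 77.7 and 55.0 on the FatK7 arrays (193-fold higher). Kcnk3, a potassium channel enriched in brown fat, gave 1897, 1652 and 1944 on the FatK1 arrays, against 28.2, 25.9 and 25.0 on the FatK7 arrays (at least 58.9-fold higher). Array 2 gave the lowest FatK1 value of Ucp1, Cox7a1, Cox8b and Kcnk3, and still lay far above the FatK7 arrays. Pdk4, a kinase that holds back pyruvate oxidation, was 47.4-fold higher and Ppargc1b, a coactivator of mitochondrial genes, 13.7-fold higher. Ppargc1a, the cold-induced coactivator of the same family, was 4.46-fold higher. Letmd1, a mitochondrial protein of brown fat, was 12.9-fold higher, and Clstn3 22.3-fold higher. Dio2, the deiodinase that activates thyroid hormone in brown fat, was dim, with 88.6, 25.0 and 46.7 on the FatK1 arrays, against 21.1, 21.95 and 21.5 on the FatK7 arrays, and was at least 1.51-fold higher (adjusted p = 0.039), a call that was lost when any array other than FatK1 array 2 was left out. Plin5, a droplet protein of oxidative tissues, was bright in both groups and overlapped, with 1649, 1149 and 2231 on the FatK1 arrays, against 2236, 1591 and 2163 on the FatK7 arrays. Mpzl2 was the member that was lower, by 1.62-fold.

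Of the adipocyte identity genes and adipokines, 19 of 24 tested were higher in FatK1 and 2 lower, with a median difference of 3.71 (3.56 with genes at their bound where they have one). Adipoq, the hormone adiponectin, was at least 248-fold higher (difference 8.21 ± 0.38, adjusted p = 8.0e-13). Lep, the hormone leptin, gave 569, 144 and 527 on the FatK1 arrays, against 30.3, 30.3 and 30.5 on the FatK7 arrays (at least 11.3-fold higher). Lep was lowest on FatK1 array 2, as was Ffar4, a fatty acid receptor, with 476, 106 and 515 on the FatK1 arrays, against 37.4, 27.5 and 31.9 on the FatK7 arrays. Pparg, the master regulator of adipocyte differentiation, gave 4208, 3576 and 4325 on the FatK1 arrays, against 219.6, 249 and 189.8 on the FatK7 arrays (18.4-fold higher). Adig, adipogenin, was at least 109-fold higher, Slc2a4, the insulin-responsive glucose transporter, at least 30.2-fold higher, and Hcar1, the lactate receptor of adipocytes, at least 14.6-fold higher. The members lower were secreted proteins that hepatocytes also make. Rbp4, the plasma retinol carrier, gave 351, 173 and 99.9 on the FatK1 arrays, against 3101, 3447 and 3286 on the FatK7 arrays (17.9-fold lower). Rarres2, chemerin, was 10.8-fold lower by its brightest probe, but its probes were called in both directions. Car3, carbonic anhydrase of adipocytes and liver, was bright in both, with 9981, 8259.5 and 10358 on the FatK1 arrays, against 2396, 5757 and 3820.2 on the FatK7 arrays, and was not called although the groups did not overlap (adjusted p = 0.063).

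Storage and release of droplet fat leaned towards FatK1, where 15 of 26 members tested were higher and 6 lower, with a median difference of 0.89. Without normalisation between arrays the counts were 11 higher and 9 lower. Pnpla2, adipose triglyceride lipase, gave 15503, 19854 and 19671 on the FatK1 arrays, against 1054, 1652 and 2221 on the FatK7 arrays (11.6-fold higher). Lipe, hormone-sensitive lipase, gave 380.2, 411 and 365 on the FatK1 arrays, against 21.4, 27.4 and 29.5 on the FatK7 arrays (at least 12.4-fold higher). The lipase that takes the last step, Mgll, was 1.41-fold higher here, but its difference was -0.31 without normalisation between arrays and its call was lost without FatK1 array 2, FatK7 array 1 or FatK7 array 2. Of the droplet coat proteins, Plin4 was 14.3-fold higher and Plin1 at least 21.8-fold higher, while Plin2, which coats droplets in most cells, gave 1495, 829.5 and 1291 on the FatK1 arrays, against 1605, 1646 and 1834 on the FatK7 arrays and was called only under other settings such as median scaling. Aqp7, the glycerol channel of fat, was 25.4-fold higher. The droplet proteins of the CIDE family took opposite sides. Cidea gave 12102, 8142 and 11577 on the FatK1 arrays, against 60.3, 27.3 and 21.8 on the FatK7 arrays (at least 267-fold higher), and Cidec, the fat cell member, was 18.9-fold higher. Cideb, the liver member, gave 83.7, 31.6 and 83.5 on the FatK1 arrays, against 2747, 2583 and 2651 on the FatK7 arrays (44.0-fold lower). The carboxylesterases Ces1f and Ces1g, which hydrolyse lipid esters in liver, were lower by 7.04-fold and at least 3.62-fold. G0s2, an inhibitor of adipose triglyceride lipase, gave 4482, 334 and 3239.9 on the FatK1 arrays, against 2857, 3760.0 and 4251 on the FatK7 arrays, where FatK1 array 2 alone was low and the gene was not called.

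Genes for making fatty acids and triglyceride fell on both sides, with 12 members higher and 13 lower of 34 tested and a median difference of 0.04. Without normalisation between arrays 9 were higher and 16 lower, with a median of -0.43. Several enzymes that assemble triglyceride or supply its carbon were higher in FatK1. Dgat2, which adds the last fatty acid, gave 20102, 16697 and 20599 on the FatK1 arrays, against 4991, 5816 and 6006 on the FatK7 arrays (3.41-fold higher), and Dgat1 was 2.96-fold higher. Pck1, which feeds glycerol synthesis in fat and glucose synthesis in liver, gave 3904, 4060.0 and 4972 on the FatK1 arrays, against 209.6, 194 and 406 on the FatK7 arrays (16.8-fold higher). Acly, which makes acetyl-CoA in the cytosol, was 2.86-fold higher, Acacb, the mitochondrial acetyl-CoA carboxylase, 5.72-fold higher, and Lpin1, a phosphatidate phosphatase, 4.84-fold higher. Several enzymes that lengthen and desaturate fatty acids were lower in FatK1, among them the desaturases of polyunsaturated fatty acids. Fads1 gave 717, 394 and 485 on the FatK1 arrays, against 12334, 12782 and 13689.6 on the FatK7 arrays (25.1-fold lower, adjusted p = 5.4e-13). Fads2 gave 29.4, 23.6 and 20.4 on the FatK1 arrays, against 760.5, 1084 and 995 on the FatK7 arrays (at least 32.7-fold lower). Fads6 was at least 51.9-fold lower, and of the elongases Elovl2 was at least 13.6-fold, Elovl1 6.66-fold and Elovl5 2.77-fold lower. Elovl6, which lengthens saturated fatty acids, was 1.86-fold higher, but not called without normalisation between arrays. Lpin2, the lipin of liver, was 20.8-fold lower by its brightest probe, with 41.2, 36.7 and 33.1 on the FatK1 arrays, against 627, 768 and 935 on the FatK7 arrays. The differences of its 4 tested probes ran from -4.38 to 0.48, without calls in both directions.

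The size of the difference in Scd1, the desaturase that makes oleate, depended on FatK1 array 2. The gene gave 2402, 219.6 and 1659 on the FatK1 arrays, against 2914, 5653 and 6880.3 on the FatK7 arrays, and was 5.06-fold lower (adjusted p = 0.0038). The lowest of the 6 values was FatK1 array 2, and without that array the difference was -1.28 (adjusted p = 0.021). Fasn, fatty acid synthase, was near background in both groups, with 39.6, 21.1 and 21.9 on the FatK1 arrays, against 47.1, 71.4 and 62.4 on the FatK7 arrays (at least 1.88-fold lower). Thrsp, which promotes fat synthesis, gave 6133, 4595 and 6133 on the FatK1 arrays, against 1701, 2104 and 3739 on the FatK7 arrays, without overlap, but was not called (adjusted p = 0.085). Srebf1, the regulator of lipid synthesis genes, overlapped, with 179, 193 and 189 on the FatK1 arrays, against 183, 169 and 210.4 on the FatK7 arrays.

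Burning fatty acids in mitochondria leaned almost wholly to FatK1, where 23 of 26 members tested were higher and 1 was lower, with a median difference of 1.46. The counts were 17 and 1 without normalisation between arrays, with a median of 0.92. Cpt1b, the fat and muscle form of the enzyme that commits fatty acids to the mitochondrion, gave 3994, 3548 and 4265 on the FatK1 arrays, against 61.0, 60.4 and 52.9 on the FatK7 arrays (67.7-fold higher, adjusted p = 7.0e-17). Cpt1a, the liver form, was dim throughout, with 26.9, 30.2 and 29.3 on the FatK1 arrays, against 31.2, 41.7 and 34.8 on the FatK7 arrays (adjusted p = 0.092). The dehydrogenases that start each round were higher by sizes that fell in this order: Acadl by 10.5-fold, Acadvl by 4.65-fold, Acadm by 2.37-fold and Acads by 2.04-fold, the last of which was not called without normalisation between arrays. Hadhb, the thiolase subunit of the trifunctional protein, gave 18432, 18072 and 18432 on the FatK1 arrays, against 2228, 2281 and 2088 on the FatK7 arrays (8.33-fold higher), and its partner Hadha was 3.97-fold higher. The electron carriers Etfa, Etfb and Etfdh were 2.76-fold, 2.25-fold and 4.30-fold higher, and were bright in both groups. Ucp3, an uncoupling protein of muscle and brown fat, was at least 5.98-fold higher. Decr1, which handles unsaturated fatty acids, was the member that was lower, by 1.95-fold.

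Oxidation outside mitochondria went the other way. Of 27 peroxisomal and omega oxidation genes tested, 21 were lower in FatK1 and 4 higher, with a median difference of -1.83. Cyp4a14, an omega hydroxylase of fatty acids, gave 32.3, 23.9 and 42.9 on the FatK1 arrays, against 8568, 13240.5 and 11862 on the FatK7 arrays (at least 327-fold lower, adjusted p = 1.9e-16). Acaa1b, a peroxisomal thiolase, gave 147, 145 and 186 on the FatK1 arrays, against 15007, 19546 and 16896 on the FatK7 arrays (108-fold lower). Its close relative Acaa1a was bright in both groups and 1.34-fold lower, a call lost without FatK1 array 1, FatK1 array 3 or FatK7 array 3. Acox2, the oxidase for branched chains and bile acid precursors, was at least 95.7-fold lower, with 35.6, 25.7 and 22.8 on the FatK1 arrays, against 2817, 2785 and 3162 on the FatK7 arrays. Other omega hydroxylases were lower as well, Cyp4f14 by at least 48.3-fold, Cyp4a31 by at least 31.3-fold, Cyp4f15 by at least 25.1-fold and Cyp4a12a by at least 19.2-fold. The peroxisomal thioesterases Acot3, Acot4 and Acot8 were lower by at least 29.9-fold, 3.55-fold and 3.73-fold. The members higher in FatK1 were Crat, carnitine acetyltransferase, by 6.39-fold, Acox3 by 2.26-fold, Ech1 by 2.76-fold and Phyh by at least 2.09-fold. Ehhadh, the bifunctional enzyme of the peroxisome, overlapped, with 277, 689.7 and 326 on the FatK1 arrays, against 413, 482 and 427 on the FatK7 arrays. The 4A and 4F cytochromes include near-identical genes whose probes could cross-hybridise.

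Of 6 ketone body genes tested, 1 was higher and 4 were lower in FatK1, with a median difference of -0.82. Oxct1, the enzyme that lets tissues other than liver burn ketone bodies, gave 4689, 2344 and 5531 on the FatK1 arrays, against 222, 184 and 224 on the FatK7 arrays (18.8-fold higher, adjusted p = 1.0e-08). Bdh1, which interconverts the main ketone bodies, gave 20.3, 19.3 and 20.7 on the FatK1 arrays, against 1977, 2572 and 2324 on the FatK7 arrays (at least 80.2-fold lower). The groups did not overlap for either gene. Bdh2, a related dehydrogenase, was 24.7-fold lower. Aacs, which returns acetoacetate to lipid synthesis, overlapped, with 1793, 761 and 1892 on the FatK1 arrays, against 1174, 1624 and 1427 on the FatK7 arrays.

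Cholesterol synthesis and uptake genes were lower in FatK1 in 17 of 20 members tested and higher in 2, with a median difference of -1.77. Fdps, which makes farnesyl diphosphate, gave 419.9, 254 and 281 on the FatK1 arrays, against 2120.0, 4275 and 4982 on the FatK7 arrays (11.5-fold lower). Msmo1, a sterol demethylation enzyme, gave 242, 122 and 204 on the FatK1 arrays, against 893, 1839 and 1833 on the FatK7 arrays (7.94-fold lower). In both, FatK7 array 1 gave less signal than the other FatK7 arrays. Sqle, squalene epoxidase, was 4.91-fold lower, Cyp51 4.35-fold lower and Stard4, a cholesterol carrier, 10.1-fold lower. Scap, the escort of the sterol-sensing transcription factors, was 3.69-fold lower, and Srebf2, the factor that drives the pathway, 1.55-fold lower. Insig2, which retains that factor, was 3.13-fold lower. Insig1, with the same role, was 1.95-fold higher by its brightest probe, but its probes were called in both directions. Idi1 was the other member higher, by 1.44-fold, a call lost without FatK1 array 2, FatK1 array 3 or FatK7 array 1, and neither member was called higher without normalisation between arrays.

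Bile acid synthesis and transport genes were lower in FatK1 in 19 of 20 members tested and higher in none, with a median difference of -5.14 (-5.02 with genes at their bound where they have one). Cyp7a1, the rate-limiting enzyme of bile acid synthesis, gave 19.9, 32.2 and 22.004 on the FatK1 arrays, against 2211, 1823 and 1124 on the FatK7 arrays (at least 55.5-fold lower, adjusted p = 8.9e-14). Cyp8b1, which sets the proportion of cholic acid, gave 32.6, 23.5 and 31.4 on the FatK1 arrays, against 1681, 3461 and 2286 on the FatK7 arrays (at least 77.6-fold lower). Both were at or near background on all FatK1 arrays. Of the transporters, Slco1b2, which takes organic anions up from blood, was at least 339-fold lower and Abcb11, the bile salt export pump, at least 22.7-fold lower. Abcg5 and Abcg8, which pump sterols into bile, were lower by at least 92.8-fold and at least 51.3-fold, and Abcb4, which exports phosphatidylcholine, by 85.7-fold. Baat, which conjugates bile acids, was at least 24.7-fold lower. Cyp27a1 and Hsd3b7, which also act outside liver, were detected in both groups and lower by 1.82-fold and 3.75-fold. The member not called, Slco1a1, was near background in both groups.

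Most lipoprotein genes were lower in FatK1, and a few that act on circulating particles were higher. Of 28 members tested, 19 were lower and 6 higher in FatK1, with a median difference of -4.50 (-4.38 with genes at their bound where they have one). Apoa4, a triglyceride-rich particle apolipoprotein, gave 23.4, 27.8 and 24.0 on the FatK1 arrays, against 22232, 21477 and 23643 on the FatK7 arrays (at least 789.7-fold lower, adjusted p = 1.7e-20). Apob, the scaffold of very low density lipoprotein, gave 21.98, 19.6 and 22.9 on the FatK1 arrays, against 2106, 2248 and 2437 on the FatK7 arrays (at least 79.5-fold lower). Apoc3, an inhibitor of triglyceride clearance, gave 54.1, 129.8 and 77.3 on the FatK1 arrays, against 26382, 25628 and 25026 on the FatK7 arrays (315-fold lower). No FatK1 value came near a FatK7 value for these 3 genes. Apoa1, Apoa2, Apoc4, Apom and Apof were lower by at least 657-fold, at least 533-fold, at least 595-fold, at least 378-fold and at least 263-fold. Mttp, which loads lipid onto Apob, was at least 13.6-fold lower, and Lcat, which esterifies plasma cholesterol, at least 71.2-fold lower. Apoe and Apoc1, which adipocytes and macrophages also make, were bright in both groups and lower by 5.94-fold and 2.71-fold. Members higher in FatK1 included those that empty particles or take them up. Lpl, lipoprotein lipase, gave 19088, 20398 and 21703 on the FatK1 arrays, against 2088, 1285 and 1629.9 on the FatK7 arrays (12.5-fold higher). Vldlr, a receptor for triglyceride-rich particles, gave 2518, 2828 and 3124 on the FatK1 arrays, against 61.8, 92.6 and 67.5 on the FatK7 arrays (38.6-fold higher), and Gpihbp1, the capillary anchor of Lpl, was 3.80-fold higher. Of the inhibitors of Lpl, Angptl4 was 2.89-fold higher and Angptl8 48.9-fold lower.

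Phospholipid, sphingolipid and eicosanoid genes were mixed, with 8 higher and 11 lower of 30 tested and a median difference of -0.09. Enzymes of the separate routes to phosphatidylcholine differed in opposite directions. Pemt, which makes it from phosphatidylethanolamine in liver, gave 68.1, 91.0 and 69.5 on the FatK1 arrays, against 4136, 4839 and 3621 on the FatK7 arrays (55.2-fold lower). Chpt1, which makes it from diacylglycerol, gave 4425, 4407 and 5158 on the FatK1 arrays, against 390.3, 571 and 505 on the FatK7 arrays (9.64-fold higher). The groups did not overlap in either. Crls1, which makes the mitochondrial lipid cardiolipin, was 3.18-fold higher and Cds1, which supplies its precursor, 7.50-fold higher. Gpd1, which makes glycerol phosphate, was 12.5-fold higher. Pcyt2 and Pla2g12b were lower by 6.74-fold and at least 28.6-fold.

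**Figure D2:**
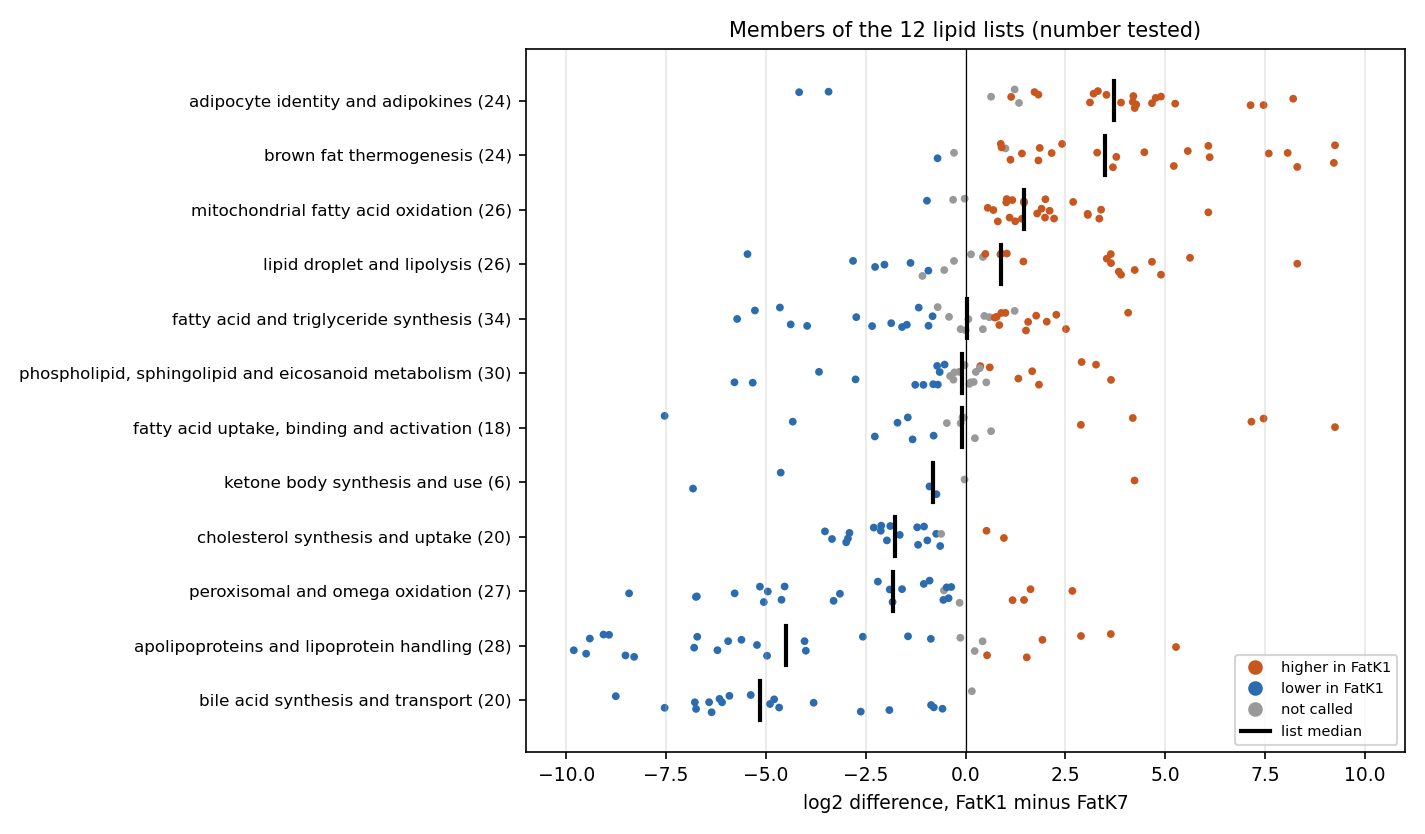
Log2 difference, FatK1 minus FatK7, of each tested member of the 12 lipid lists, with the number tested in parentheses, the list median as a bar, and colour for the call. Adipocyte, thermogenic and mitochondrial oxidation genes lie right of 0, bile acid and apolipoprotein genes left of it, and synthesis, uptake and phospholipid genes on both sides.

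Outside lipid metabolism the respiratory chain was higher in FatK1 almost throughout. Of 46 citrate cycle and respiratory chain genes tested, 42 were higher in FatK1 and 1 lower, with a median difference of 1.83 (1.16 without normalisation between arrays). Cs, citrate synthase, gave 10464, 9278 and 10464 on the FatK1 arrays, against 538, 569 and 503 on the FatK7 arrays (18.8-fold higher). Cox7b was 34.5-fold higher, Ndufb5, a complex I subunit, 18.2-fold higher, and Atp5a1, an ATP synthase subunit, 16.3-fold higher. Atp5b, its partner, was bright in both, with 25026, 24408 and 25270.3 on the FatK1 arrays, against 23372, 21839 and 22722 on the FatK7 arrays (adjusted p = 0.14). The member called lower, Atp5j, had probes called in both directions. Breakdown of branched-chain amino acids, another fuel of brown fat, was higher in 16 of 18 genes tested and lower in none, with a median difference of 1.42, and 11 were higher without normalisation between arrays. Dld, the shared dehydrogenase subunit, gave 3530.2, 3327 and 4082 on the FatK1 arrays, against 95.4, 109 and 102 on the FatK7 arrays (35.7-fold higher). Bcat2, the aminotransferase of tissues other than liver, was 11.5-fold higher and Bckdk, the kinase that restrains the pathway, 8.55-fold higher.

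Glucose genes fell on both sides. Of 23 glycolysis and glucose uptake genes tested, 12 were higher and 3 lower in FatK1, with a median difference of 1.22, and 6 were lower without normalisation between arrays. Pkm, the pyruvate kinase of most tissues, gave 8200, 5430.5 and 6603 on the FatK1 arrays, against 411, 318 and 312 on the FatK7 arrays (19.3-fold higher). Aldoa, an aldolase, was 6.56-fold higher, and Pfkp and Pfkm, forms of phosphofructokinase, 6.52-fold and 6.40-fold higher. Hk3, a hexokinase of blood cells, was at least 5.09-fold lower and Slc2a1, a ubiquitous glucose transporter, 2.28-fold lower. Gluconeogenesis, glycogen and fructose genes were split, with 9 higher and 11 lower of 24, and 6 and 12 without normalisation between arrays. G6pc, which releases glucose from liver, gave 25.0, 20.6 and 21.9 on the FatK1 arrays, against 5042, 2845 and 3826 on the FatK7 arrays (at least 134-fold lower). Fbp1, fructose-1,6-bisphosphatase of liver, gave 19.99, 28.8 and 20.6 on the FatK1 arrays, against 5927, 5629 and 6028 on the FatK7 arrays (at least 204-fold lower). Khk, which phosphorylates fructose, was 32.5-fold lower and Gckr, the glucokinase regulator, at least 20.6-fold lower. Pygb, a glycogen phosphorylase, was 13.1-fold higher.

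Some related genes with the same reaction or cargo sat on opposite sides, and 9 such pairs, picked for this after their values were seen, are plotted together. The choice fixes the pattern, so the pairs do not show how often relatives differ. For Cpt1b and Cpt1a, not among them, the liver form was not called. In the pairs so chosen, the member higher in FatK1 is the one known from fat, muscle or most tissues. The member lower in FatK1 is the one known from liver. Slc2a2, the glucose transporter of liver, gave 21.5, 32.1 and 20.8 on the FatK1 arrays, against 1518, 1885 and 1652 on the FatK7 arrays, while Slc2a4 gave 1131, 681 and 1064 on the FatK1 arrays, against 24.9, 23.9 and 25.0 on the FatK7 arrays. Gys2 and Pklr, the glycogen synthase and pyruvate kinase of liver, were lower by 9.22-fold and at least 6.70-fold, and Gys1 was at least 3.13-fold higher. Fbp2, the muscle bisphosphatase, was 5.35-fold higher, with its highest value on FatK1 array 2. Igf1, which liver releases into blood, gave 128, 76.3 and 61.0 on the FatK1 arrays, against 3251, 3309 and 2730.0 on the FatK7 arrays (36.7-fold lower), while Igf2 gave 904, 1128 and 895 on the FatK1 arrays, against 53.1, 36.9 and 56.7 on the FatK7 arrays (20.2-fold higher). Tfr2, the iron sensor of hepatocytes, was at least 29.1-fold lower and Tfrc, the common transferrin receptor, 3.70-fold higher.

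**Figure D3:**
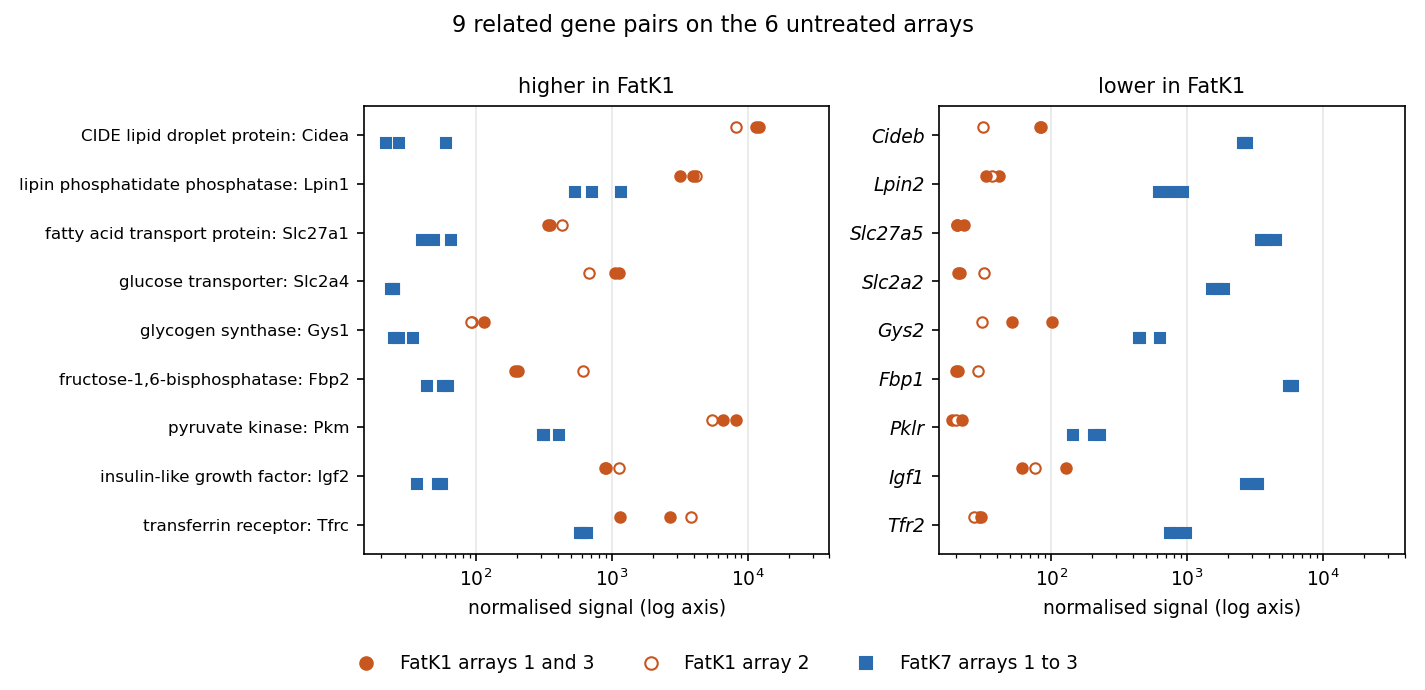
Normalised signal (log axis) on the 6 untreated arrays for 9 pairs of related genes, FatK1 as circles above FatK7 as squares, with FatK1 array 2 as an open circle. In each row the gene in the left panel is higher in FatK1 and its relative in the right panel is lower, with no overlap between the groups. The pairs were picked for this after their values were seen.

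The secretory and detoxifying programs of hepatocytes were lower in FatK1 nearly to the last member. All 29 of 29 plasma protein genes tested, of 31 on the array, were lower, with a median difference of -6.44 (-6.40 with genes at their bound where they have one). Ahsg, fetuin A, gave 26.8, 27.3 and 29.6 on the FatK1 arrays, against 22969.6, 22145 and 22533 on the FatK7 arrays (at least 785-fold lower). Hp, haptoglobin, was still bright in FatK1, with 1751, 1866 and 1429 on the FatK1 arrays, against 21966, 24212 and 19854 on the FatK7 arrays (13.1-fold lower). Of 34 coagulation and complement genes, 33 were lower, Fga, a fibrinogen chain, by at least 694-fold and F2, prothrombin, by at least 183-fold, and C8b, a complement component, was 2.11-fold higher, a call lost both with median scaling and without normalisation between arrays. Of 31 urea cycle and amino acid genes, 29 were lower. Arg1, the arginase that releases urea, gave 25.7, 19.9 and 19.6 on the FatK1 arrays, against 16114, 15984 and 18925 on the FatK7 arrays (at least 597-fold lower), and Mat1a, the liver enzyme that makes S-adenosylmethionine, was at least 799-fold lower. Glul, glutamine synthetase, was the member higher, with 876, 664 and 1181 on the FatK1 arrays, against 63.4, 72.7 and 86.9 on the FatK7 arrays (11.97-fold). Of 36 xenobiotic genes, 34 were lower, Cyp2a5 by at least 674-fold, Cyp1a2 by at least 332-fold and Gsta3, a glutathione transferase, by 440.2-fold. Cyp2b10, a drug-inducible cytochrome, was the member higher, with 443, 1847 and 3286 on the FatK1 arrays, against 98.5, 54.6 and 92.2 on the FatK7 arrays (17.6-fold), and its FatK1 values were spread widely. Fmo1, a flavin monooxygenase, was bright in both and overlapped, with 4859, 3086 and 6338 on the FatK1 arrays, against 5140.5, 4940.1 and 4940.1 on the FatK7 arrays.

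Transcription factors of liver were mostly lower in FatK1 and those of fat mostly higher. Of 18 hepatocyte factors tested, 13 were lower and 3 higher in FatK1, with a median difference of -3.94. Hnf4a, a nuclear receptor that sustains hepatocyte genes, gave 24.7, 41.0 and 27.0 on the FatK1 arrays, against 2300.3, 2423 and 2067 on the FatK7 arrays (at least 69.9-fold lower, adjusted p = 5.8e-15). Nr1h4, the bile acid receptor, was at least 85.9-fold lower, Foxa3 at least 63.2-fold lower, Nr1i3, a xenobiotic receptor, at least 51.4-fold lower and Creb3l3 at least 43.2-fold lower. Cebpa, which acts in both tissues, was 3.31-fold higher, and Esrrg, a receptor of oxidative tissues, 5.44-fold higher. Mlxipl, the glucose-responsive factor of lipid synthesis, overlapped, with 1315, 765 and 1260.2 on the FatK1 arrays, against 1356, 1057 and 1142 on the FatK7 arrays. Of 23 adipose factors tested, 18 were higher and 0 lower, with a median difference of 1.86. Ebf2, which specifies brown fat precursors, gave 675, 1165 and 849 on the FatK1 arrays, against 23.4, 22.1 and 25.2 on the FatK7 arrays (at least 28.2-fold higher), and its relatives Ebf1 and Ebf3 were 17.8-fold and at least 24.1-fold higher. Cebpb, an early factor of adipocyte differentiation, was bright in both, with 5629, 5828 and 5828 on the FatK1 arrays, against 5419, 3904 and 5456 on the FatK7 arrays.

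Promoter sequences of the most different genes were searched for short motifs of factors known in these tissues, and 5 promoters that hold one are printed below to show them. Each is the 250 bases before the start of the gene in RefSeq, build GRCm38.p6, 5′ to 3′ along the gene's strand, with the matched letters in capitals. The search covered 300 bases, to 50 after the start, on both strands, and a capital run may be the reverse complement. HNF1 factors bind GTTAATNAT, HNF4 factors bind CAAAGTCCA and C/EBP factors bind TTGCGCAA, where N stands for any base. The motifs were chosen after the expression values had been seen, and the HNF1 letters were shortened by a base after counts of the longer form had been seen.
G6pc: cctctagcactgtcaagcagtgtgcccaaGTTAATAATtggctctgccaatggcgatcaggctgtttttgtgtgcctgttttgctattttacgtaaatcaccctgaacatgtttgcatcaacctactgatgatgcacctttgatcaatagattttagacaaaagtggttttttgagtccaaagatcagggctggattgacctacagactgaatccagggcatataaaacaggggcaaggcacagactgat
Lpin2: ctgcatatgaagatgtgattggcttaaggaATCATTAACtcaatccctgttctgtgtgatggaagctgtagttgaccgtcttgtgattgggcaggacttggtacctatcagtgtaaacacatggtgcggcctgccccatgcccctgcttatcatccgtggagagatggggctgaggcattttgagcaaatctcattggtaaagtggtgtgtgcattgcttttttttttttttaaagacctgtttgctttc
Cyp8b1: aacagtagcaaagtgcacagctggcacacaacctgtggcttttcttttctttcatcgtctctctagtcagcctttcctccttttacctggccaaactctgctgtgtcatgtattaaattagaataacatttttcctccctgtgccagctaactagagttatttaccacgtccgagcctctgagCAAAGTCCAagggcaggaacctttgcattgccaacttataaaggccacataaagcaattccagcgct
Cyp2c70: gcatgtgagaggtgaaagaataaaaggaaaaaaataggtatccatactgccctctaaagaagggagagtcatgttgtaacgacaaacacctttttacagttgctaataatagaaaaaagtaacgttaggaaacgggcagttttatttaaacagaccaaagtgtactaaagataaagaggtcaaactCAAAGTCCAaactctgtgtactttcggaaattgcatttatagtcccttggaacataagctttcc
Lep: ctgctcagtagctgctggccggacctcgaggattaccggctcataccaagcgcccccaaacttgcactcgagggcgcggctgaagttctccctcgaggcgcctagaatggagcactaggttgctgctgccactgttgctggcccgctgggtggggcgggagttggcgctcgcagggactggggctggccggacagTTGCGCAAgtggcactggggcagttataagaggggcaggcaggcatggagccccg
The G6pc window lies on the plus strand at chr11:101367466-101367715 and the Lpin2 window on the plus strand at chr17:71204404-71204653, both with an HNF1 motif. The Cyp8b1 window on the minus strand at chr9:121916306-121916555 and the Cyp2c70 window on the minus strand at chr19:40187287-40187536 hold an HNF4 motif, and the Lep window on the plus strand at chr6:29059971-29060220 holds a C/EBP motif. Cyp2c70, a cytochrome of bile acid metabolism in mouse liver, was at least 229-fold lower, with 20.1, 24.0 and 21.1 on the FatK1 arrays, against 7608, 6133 and 5902 on the FatK7 arrays. The HNF1 motif was found in 2 of 193 genes (1.04%) called higher in FatK1 by at least 8-fold that had a promoter sequence, in 26 of 426 genes (6.1%) called lower by at least 8-fold, and in 0.656% of 10366 tested genes with a sequence. The HNF4 motif was found in 1 of the 193 higher genes (0.518%) and 11 of the 426 lower genes (2.58%), against 0.588% of tested genes. The related CAAAGGTCA was found in 0 of the higher and 7 of the lower genes (1.64%), against 0.473% of tested genes. The C/EBP motif was found in 1 gene of each set, against 0.28% of tested genes, and TCAAGGTCA, bound by oestrogen-related receptors, in 1 gene of each set, against 0.376%. Over all 27025 genes with a sequence, tested or not, the shares were 0.94% for HNF1, 0.555% for HNF4, 0.544% for CAAAGGTCA, 0.207% for C/EBP and 0.466% for TCAAGGTCA. CAAAGGTCA and TCAAGGTCA end in the same letters and can share bases, and the 5 motifs were picked after counts of a longer set of patterns had been looked at. A match describes letters in the window, not a bound site.

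Genes of body position and growth signals differed too. Of 19 Hox genes tested, which mark position along the body axis, 11 were higher in FatK1 and 0 lower. Hoxc6 gave 574, 350.4 and 458 on the FatK1 arrays, against 26.4, 27.5 and 31.1 on the FatK7 arrays (at least 14.5-fold higher), and Hoxa5, a gene of the anterior trunk, gave 595, 847 and 728 on the FatK1 arrays, against 87.1, 68.4 and 97.1 on the FatK7 arrays (8.59-fold higher). Hormone and growth factor genes were split, 8 higher and 11 lower of 24. Fgf21, a fasting hormone of liver, gave 22.4, 29.1 and 22.1 on the FatK1 arrays, against 1867, 2369.7 and 1018 on the FatK7 arrays (at least 57.3-fold lower), while Klb, its co-receptor, was 4.05-fold higher. Gcgr, the glucagon receptor, was at least 46.6-fold lower and Igfbp2 at least 74.6-fold lower. Vegfa, the vessel growth factor, was 4.85-fold higher. Iron genes were lower in 12 of 18 and higher in 2, led by Hamp, the iron hormone hepcidin, with 24.4, 24.2 and 24.5 on the FatK1 arrays, against 11442, 13843 and 8899 on the FatK7 arrays (at least 395-fold lower). Trf, transferrin, was 87.0-fold lower, and Fth1, ferritin heavy chain, was bright in both, with 23059, 25964 and 23869.9 on the FatK1 arrays, against 21118, 23372 and 20599 on the FatK7 arrays.

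Circadian, cell cycle, interferon and ribosome lists had median differences under 1 in size after normalisation. Without normalisation between arrays the medians were -1.08 for circadian, -0.80 for cell cycle, -1.11 for interferon and -0.45 for ribosome genes. On the shFoxd3 arrays the interferon median was -1.94, and the others were under 1 in size. Of 15 circadian clock genes, 4 were higher and 5 lower, and 8 were lower without FatK1 array 2. Without normalisation between arrays 1 was higher and 8 were lower. Arntl, the positive limb factor, was 3.81-fold higher, while its targets Dbp and Ciart were lower by 15.8-fold and 10.1-fold, and the hour of collection is not in the labels. Of 18 mitosis and DNA replication genes, 9 were lower and 1 higher. Mcm5, a replication helicase subunit, gave 94.7, 75.4 and 70.7 on the FatK1 arrays, against 498, 335 and 355 on the FatK7 arrays (4.89-fold lower), and Pcna, the replication clamp, was at least 3.62-fold higher. Leaving out FatK7 array 1 lowered the number called lower to 5. Interferon response genes were lower in 10 of 19 and higher in none, and in 16 without normalisation between arrays. Usp18 and Isg15, both induced by interferon, were lower by 9.32-fold and at least 5.43-fold. Of 16 ribosomal protein genes 5 were higher and 3 lower, shares close to or under those of all genes, and 2 and 7 without normalisation between arrays. Of 19 immediate early and heat shock genes, 6 were higher and 1 lower, with a median difference of 0.29. The list turned without FatK1 array 1, to 2 higher and 4 lower with a median of -0.07, and was even without normalisation between arrays, with 5 higher and 5 lower. The number higher was 3 both without FatK7 array 2 and without FatK7 array 3.

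**Figure D4:**
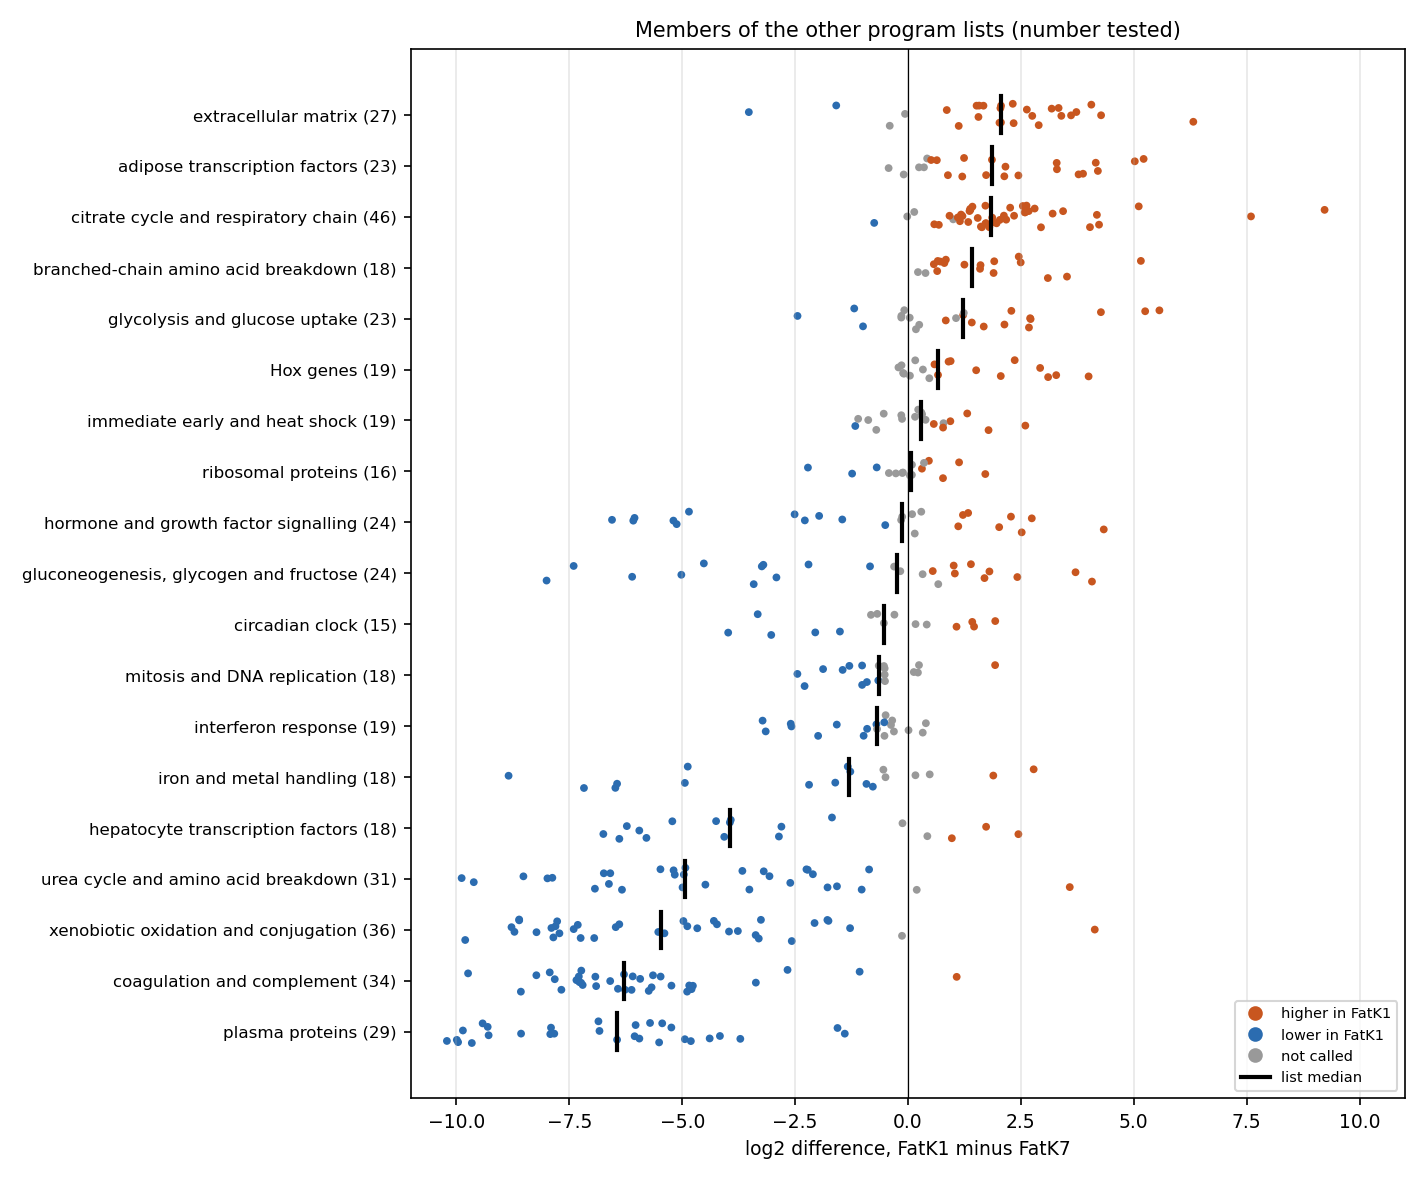
Log2 difference, FatK1 minus FatK7, of each tested member of the other 19 program lists, drawn as for the lipid lists. Plasma protein, complement, xenobiotic and urea cycle genes lie left of 0, respiratory chain, matrix and branched-chain amino acid genes right of it, and ribosomal, clock and immediate early genes around it.

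Markers of other cell types moved with the groups as well, and in bulk RNA fewer cells of a type and less RNA in each cell cannot be told apart. Extracellular matrix genes were higher in FatK1 in 23 of 27 and lower in 2, with a median difference of 2.06, and 4 were lower without normalisation between arrays. Timp4, a protease inhibitor made by adipocytes, gave 1838, 1550.0 and 2431 on the FatK1 arrays, against 23.9, 24.9 and 22.9 on the FatK7 arrays (at least 61.4-fold higher), and Col3a1, a fibrillar collagen, gave 2008, 445 and 1007 on the FatK1 arrays, against 47.9, 40.1 and 64.5 on the FatK7 arrays (19.4-fold higher). Fn1, fibronectin, which hepatocytes secrete, was 11.5-fold lower. Endothelial markers were higher in 9 of 10, Pecam1 by 8.73-fold and Emcn by 6.68-fold. Liver sinusoid markers were lower in 7 of 8, led by Clec4g, with 32.8, 25.97 and 25.3 on the FatK1 arrays, against 3014, 2886 and 2758 on the FatK7 arrays (at least 97.2-fold lower). All 6 tested markers of Kupffer cells, the macrophages of liver, of 7 on the array, were lower, Vsig4 by at least 43.5-fold and Clec4f by at least 17.3-fold. General macrophage markers were lower in 5 of 9. Markers of the vitamin A storing stellate cell were split, with 2 higher and 2 lower of 5 tested. The lower ones were Lrat, by at least 12.6-fold, and Reln, by 33.8-fold. Fibroblast markers were higher in 7 of 9, and without normalisation between arrays in 6 with 2 lower. Smooth muscle markers were higher in 5 of 8, Schwann cell markers in 4 of 4, mast cell markers in 4 of 5 and erythroid markers in 3 of 3. The summed normalised signal of the tested Schwann cell markers was 1415, 1254 and 1235 on the FatK1 arrays, against 215, 209 and 208 on the FatK7 arrays. Over the tested Kupffer cell markers the sums were 1615, 1968 and 996 on the FatK1 arrays, against 6306, 6542 and 5366 on the FatK7 arrays. Endothelial markers summed to 8301, 7295 and 8313 on the FatK1 arrays, against 2503, 2489 and 2593 on the FatK7 arrays. The part of these cells in the differences of other genes was not tested.

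Skeletal muscle and neutrophil markers were brightest on FatK1 array 2. Of 11 muscle markers tested, 9 were higher in FatK1, with a median difference of 2.75, against 6 without FatK1 array 2, with a median of 1.22 and 1 marker lower. In a fit of only the 6 arrays compared, 3 were called higher. The summed normalised signal of the tested muscle markers was 308, 27512 and 2563 on the FatK1 arrays, against 313, 303 and 315 on the FatK7 arrays, so that FatK1 array 1 lay with the FatK7 arrays and FatK1 array 2 far above them. Pvalb, parvalbumin of fast muscle, gave 49.8, 1477 and 519.6 on the FatK1 arrays, against 28.3, 21.5 and 23.4 on the FatK7 arrays. All 3 neutrophil markers called higher, S100a8, S100a9 and Retnlg, were no longer called without FatK1 array 2. Some genes counted in the fat lists are also muscle genes, among them Cox6a2, with 26.004, 3014 and 88.6 on the FatK1 arrays, against 92.5, 60.2 and 156 on the FatK7 arrays, which overlapped. Myl1, a myosin light chain, was among the 12 probes most raised, with 2982, 8409 and 3705 on the FatK1 arrays, against 23.1, 21.6 and 20.7 on the FatK7 arrays (at least 146-fold higher), and it was bright on all 3 FatK1 arrays. Cox8b, Cox7a1 and Fabp3, which muscle also uses, were brighter on FatK1 arrays 1 and 3 than on array 2. Acta1 was brightest on array 2 and dimmest on array 1. The part of muscle in the signal of the fat genes was not tested.

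The same contrast was then made between the shFoxd3 arrays. There 7710 probes (31.1%) were higher in FatK1 and 6522 (26.3%) lower, 57.4% in all, and by at least 2-fold 3991 (16.1%) were higher and 3451 (13.9%) lower. Of the 3903 probes higher by at least 2-fold on untreated arrays, 3808 (97.6%) were called higher on shFoxd3 arrays too, and of the 3282 lower by at least 2-fold, 3201 (97.5%) were called lower. These arrays share no array with the untreated ones but carry the same mouse labels. Median differences on untreated and on shFoxd3 arrays were 3.49 and 3.90 for thermogenic genes, 1.46 and 1.69 for mitochondrial oxidation, -4.50 and -3.77 for apolipoproteins and -5.14 and -4.87 for bile acid genes. For skeletal muscle markers they were 2.75 and 7.52, and all 11 tested were higher in FatK1 on shFoxd3 arrays. The median log2 value of these markers was 12.5, 12.6 and 10.6 on the shFoxd3 FatK1 arrays. On the untreated FatK1 arrays it was 4.57, 10.4 and 6.80. The part of muscle in the other medians was not tested. The difference between the arms was called for 54 of 24789 probes (0.218%). Among lipid genes these were Fasn, Mid1ip1 and Acaa1b. Fasn gave 65.7, 38.7 and 66.6 on the shFoxd3 FatK1 arrays, against 25.6, 29.1 and 31.0 on the shFoxd3 FatK7 arrays, so that its difference was -1.17 on the untreated arrays and 0.96 on these. The Fasn probe was dim in both arms. Mid1ip1, a partner of fatty acid synthesis enzymes, had a difference of -1.59 on the untreated arrays and 0.53 on the shFoxd3 arrays. Scd1 had a difference of -2.34 on the untreated arrays and 0.62 on the shFoxd3 arrays, and Thrsp had 1.23 on the untreated arrays and 5.10 on the shFoxd3 arrays. The difference between the arms was not called for either gene (adjusted p = 0.22 and 0.064).

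**Figure D5:**
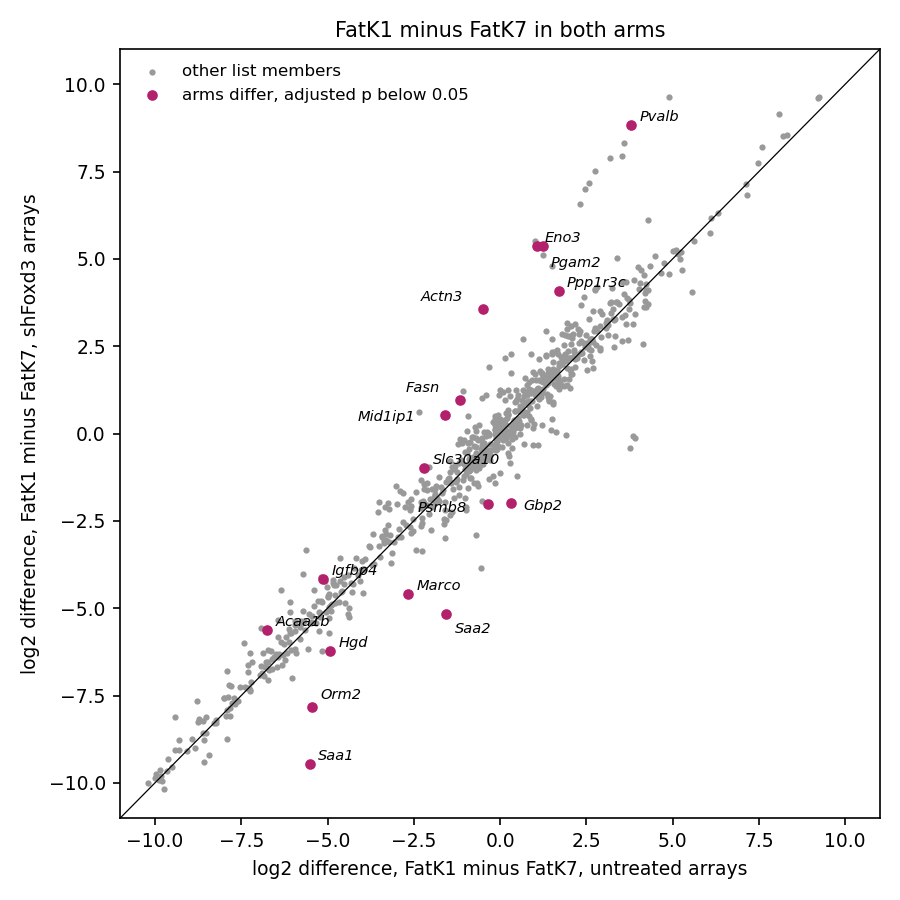
Log2 difference, FatK1 minus FatK7, on the untreated arrays (x axis) and on the shFoxd3 arrays (y axis) for the tested list members, with the line of equal differences. Most points lie along the line, and named points are the members whose difference between the arms was called.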

How the data were processed

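RNA was measured on mouse bead arrays with 45281 probes, 18 arrays in 6 groups of 3. The authors deposited a non-normalised table with 1 bead intensity and 1 detection p-value for each probe and array, per the file headers. The intensities are background subtracted as deposited, since 23.2% to 30.9% of them lie below 0 on the 6 untreated arrays compared, and the software that made them is not given in the sources used here. The series matrix holds the same intensities multiplied by 1 of 18 factors that follow the order of the probes, and served only as an alternative.

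The 43 probes with long printed numbers were dropped first. Intensities were background corrected with the detection p-values, offset by 16, quantile normalised over all 18 arrays and log2 transformed with neqc of limma 3.58.1 (R 4.3.3, statmod 1.5.0). The 24789 probes detected (p-value under 0.05) by 3 or more of the arrays were fitted with a mean for each of the 6 groups, and contrasts were tested with limma's moderated test with a trended prior and Benjamini-Hochberg adjustment at 0.05. Errors after ± are moderated standard errors. A gene stands for its tested probe with the highest mean over the 6 arrays. Symbols came from the platform annotation through Entrez identifiers to RefSeq, GRCm38.p6, with 34885 probes having 1 symbol, 18 several and 10378 none.

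The arrays, the 51 gene lists and the tests were chosen with earlier results of these data known. Of 971 listed genes 799 were tested. Any member of the 12 lipid lists could be named. From each other list the rule took up to 6 genes called in each direction without overlap and up to 2 detected genes with the smallest difference, and it took the 12 genes most different in each direction overall and Foxd3, Cdcp1, Xist and Eif2s3y. Genes outside this rule are marked where they appear, and the colon markers named as not tested come from their list. On simulated data with known changes in the same comparison, over 24789 probes, the test recovered 12% of changes of 0.5 and 68% of 1. It recovered 98% of 2 and 100% of 4 (log2), with 8 false calls. Only 50 probes were changed at each size, with independent noise, whereas 56.1% of probes were called in the data. The rates may therefore differ in the data. The number of arrays limits the precision. Arrays of different groups carried the same replicate numbers, which were not used to pair them. Alternatives covered the arrays fitted, the offset, background correction, normalisation, filters, the dropped probes, the deposited matrix, the prior, the replicate number as a block and leaving out each array. A fit without normalisation between arrays, list counts without FatK1 array 2 or FatK7 array 1 and the contrast between the arms were added after the data were seen.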

Additional observations from a re-analysis of the deposited data

Results flagged for a closer look

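The difference between FatK1 and FatK7 was itself different between untreated and shFoxd3 arrays for 5 of the genes named above, by limma's test of the difference between the arms with Benjamini-Hochberg adjustment. The change, untreated minus shFoxd3, was -2.13 for Fasn (adjusted p = 0.0096), -2.12 for Mid1ip1 (adjusted p = 0.021) and -1.13 for Acaa1b (adjusted p = 0.027). It was -2.09 for Myl1 (adjusted p = 0.027) and -5.03 for Pvalb (adjusted p = 0.041), both genes of fast muscle fibres. Acaa1b, Myl1 and Pvalb were called in one direction in both arms and differed in size, with -6.75 and -5.62 for Acaa1b, 7.70 and 9.79 for Myl1 and 3.80 and 8.83 for Pvalb on untreated and on shFoxd3 arrays. Fasn was lower in FatK1 on untreated arrays and higher on shFoxd3 arrays, but its probe was dim, with values at or near background in both arms. The untreated FatK1 arrays split by Xist and Eif2s3y and the shFoxd3 FatK1 arrays did not, and the part of that split in these 5 values was not tested. Skeletal muscle markers had a median log2 value of 10.6 to 12.6 on the shFoxd3 FatK1 arrays, against 4.57 to 10.4 on the untreated FatK1 arrays. The part of muscle in these 5 values was not tested either.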

How the results depend on the processing

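The counts of probes called stayed within 1.5 times of those reported under all alternatives run. With an offset of 50, 2640 probes were higher and 2311 lower by at least 2-fold, against 3903 and 3282 as reported. Of 51 list medians, 26 were counted as moved with that offset and 27 without normalisation between arrays. With that offset the median went from 3.71 to 2.70 for adipocyte identity genes and from 3.49 to 2.82 for thermogenic genes. For urea cycle and amino acid genes it went from -4.93 to -3.62. Leaving out 1 array gave 6985 to 7337 probes higher and 5699 to 5892 lower, with 3854 to 3964 and 3259 to 3354 of them by at least 2-fold. With the replicate number as a block 7730 probes were higher and 6236 lower. Deviations of arrays with the same number in FatK1 and FatK7 correlated at 0.063, 0.0072 and -0.017 for numbers 1 to 3. On the untreated FatK5 arrays Xist gave 26.5, 893.8 and 21.4 and Eif2s3y 851.8, 24.9 and 1020. Array 2 of FatK5 thus matched array 2 of FatK1 in both transcripts, and other traits shared by number were not tested. Without normalisation between arrays 5364 probes were higher and 7579 lower. Of 222 named genes called, 208 kept their direction and call under every alternative. A direction turned under median scaling for Mgll (-0.027) and without normalisation between arrays for Mgll (-0.31), and with the mean over all probes of a gene for Atp5j (1.16) and Insig1 (-0.17). The other turns were in named genes not called. Under median scaling they were Cdcp1 (0.12), Cebpb (-0.20), Dbi (0.27) and Srebf1 (-0.14), and without normalisation Cebpb (-0.48) and Srebf1 (-0.42). Srebf1 was -0.42 in the deposited matrix, and Eif2s3y was 0.050 there, 0.30 with an offset of 50 and 0.0051 with the dropped probes kept. With 1 array left out the differences lay between -0.26 and 0.40 for Aacs, -0.99 and 2.44 for Cox6a2, -0.14 and 0.049 for Dbi, -0.55 and 0.11 for Ehhadh, -1.05 and 1.89 for Eif2s3y, -0.37 and 0.15 for Fmo1, -1.78 and 0.092 for G0s2, -0.26 and 0.13 for Mlxipl and -0.069 and 0.090 for Srebf1. The causes were not tested. Signal over background limits what can be said of probes near 20 to 30, where fold changes are given as lower bounds.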
